A study of Homo sapiens with 121 samples.

Results

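Mitosis is carried out by a set of proteins that cells make anew each time they approach division. Cyclin B and CDK1 drive entry, kinases such as PLK1 and the Aurora kinases build the spindle, a checkpoint holds the chromosomes until every kinetochore is attached, and the ubiquitin ligase APC/C then releases them so that motors and scaffold proteins can divide the cell. The transcripts of most of these proteins peak in G2 and M phase, and pluripotent stem cells, which cycle fast, hold many of them at high levels. MELK is a protein kinase of proliferating cells whose transcript also rises towards mitosis.

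The genes examined are 41 named mitosis genes, MELK among them, and all 41 were found among the 25610 genes read. They were measured in 121 single cells of WA26, a human embryonic stem cell (hESC) line kept undifferentiated in E8 medium on Matrigel, without feeder cells and without any further treatment, genotype or time point between the groups. The method, scT&R-seq, reads RNA and telomere length from the same cell: polyadenylated RNA was captured on beads and turned into Smart-seq2 cDNA, and qPCR on the remaining genomic DNA compared telomeric repeats with Alu repeats. The ratio of these signals, T/R, stands for telomere length. By their labels, 81 cells had long, 25 medium and 15 short telomeres, and their T/R ratios lay over 1, between 0.4 and 1, and under 0.4. All cells are of a single line and no separate cultures are named, so each group counts as 1 sample, no p-value was computed, and every correlation across cells is a description of these cells.

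Values are TPM, a transcript's share of all transcripts of its cell, which is scaled for gene length and keeps no record of the number of reads, so the precision of a single value is not known. A gene was called detected above TPM 1. Differences are taken between group means of log2(TPM + 1), a scale that understates the change of low genes, and the SD is across cells. The cells fell into 68 gene-rich cells, with more than 8000 detected genes (51 long, 14 medium and 3 short), and 53 gene-poor cells (30, 11 and 12). This border was chosen after the values had been seen in earlier work on these data. Long telomere cells had 8296 ± 2152 detected genes and short telomere cells 5784 ± 2355. The correlations with T/R of MELK and of the members as a set are therefore given on either side of the border as well. So are the count and the median of the members' long-short differences. Other values are not all given on either side. Whether a lower value in gene-poor cells reflects fewer transcripts or a poorer library cannot be told apart. The hESC label was matched by its markers: all 8 pluripotency markers examined, POU5F1 and NANOG among them, were detected in at least 113 cells. Their summed TPM had a median of 3353, 2993 and 1573 in the long, medium and short groups, and NANOG was detected in 98.8% of long and 73.3% of short telomere cells, so that these markers, like the members, were lower in the short group. The 14 lineage markers summed to a median TPM of 5.77, 3.99 and 7.75 in the 3 groups in the same order, and reached 72, 113.8 and 121 in single cells. MIXL1 was detected in 46 cells, PAX6 in 33 and SOX7 in 23 (17.3% of long and 40% of short telomere cells), and GATA6 and HAND1 were at 0 in every cell. The part of these differences in the results was not tested.

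The promoters of several members are shown first. That of MELK lacks the short motifs that most of the others hold. Whether the motifs bear on how the members vary across cells was not tested. Both of the short motifs searched are known from promoters of mitosis genes, the CCAAT box and the cell cycle genes homology region (CHR). The letters searched were CCAAT or ATTGG for the former and TTTGAA or TTCAAA for the latter, on both strands, in windows from 250 bases before to 50 bases after the gene start in RefSeq (GRCh38.p14). Of the 41 members, 34 had such a window. AURKA, TTK, BUB3, UBE2C, BIRC5, TPX2 and RACGAP1 did not. The 250 bases before the start are printed 5′ to 3′ on the plus strand, with the motif letters in capitals, for MELK (chr9:36572645-36572894), cyclin B2 (CCNB2, chr15:59104896-59105145), the kinase PLK1 (chr16:23678639-23678888) and the APC/C activator CDC20 (chr1:43358731-43358980).
MELK: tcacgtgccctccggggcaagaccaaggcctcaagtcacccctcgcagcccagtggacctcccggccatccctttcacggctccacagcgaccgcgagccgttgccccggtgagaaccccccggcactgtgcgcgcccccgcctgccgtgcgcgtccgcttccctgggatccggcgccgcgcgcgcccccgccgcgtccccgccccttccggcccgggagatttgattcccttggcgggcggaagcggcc
CCNB2: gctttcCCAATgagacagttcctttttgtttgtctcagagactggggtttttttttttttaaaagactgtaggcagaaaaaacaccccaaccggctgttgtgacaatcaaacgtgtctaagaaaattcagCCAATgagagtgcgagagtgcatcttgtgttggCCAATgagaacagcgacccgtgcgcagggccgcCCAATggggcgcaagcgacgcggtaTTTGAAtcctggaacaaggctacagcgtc
PLK1: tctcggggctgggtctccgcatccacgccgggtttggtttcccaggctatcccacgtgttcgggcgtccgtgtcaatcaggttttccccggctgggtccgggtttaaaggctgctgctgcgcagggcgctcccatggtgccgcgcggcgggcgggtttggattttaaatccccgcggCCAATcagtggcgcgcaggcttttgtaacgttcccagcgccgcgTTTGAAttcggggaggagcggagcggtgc
CDC20: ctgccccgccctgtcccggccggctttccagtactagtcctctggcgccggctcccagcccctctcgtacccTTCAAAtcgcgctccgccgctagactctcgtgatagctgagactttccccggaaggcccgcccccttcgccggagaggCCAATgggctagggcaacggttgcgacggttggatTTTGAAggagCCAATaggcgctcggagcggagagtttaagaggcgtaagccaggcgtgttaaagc

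At least 1 CCAAT box was found in 27 of the 34 windows (79.4%), against 35.7% of 27305 RefSeq promoters of the same length. A CHR was found in 25 (73.5%), against 15.4%, and both in 21 (61.8%), against 6.08%. Among 4707 windows of genes with a mean TPM of 10 or more, the shares were 39.2%, 9.73% and 4.44% in the same order. In 47 windows of other mitosis genes, from the list described below, they were 63.8%, 59.6% and 46.8%. High shares were therefore not particular to the members. CCNB2 had 4 CCAAT boxes, the nearest beginning 54 bases before the start, and a CHR beginning 29 bases before it. PLK1 had a CHR at the same distance and a single CCAAT box, and CDC20 had 2 of each. The MELK window held neither motif, as did those of CENPE and KIF2C. A match is a string of letters and not a site shown to be bound, and a window without one says nothing on which factors act there.

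MELK (chr9:36572859-36677680 in GRCh37, plus strand) had a mean TPM of 55.3 and was detected in 108 of 121 cells. Its TPM ranged from 0 to 345 in long telomere cells, with a median of 47.7. In medium telomere cells it ranged from 0.96 to 139.7, with a median of 31.3, and in short telomere cells from 0 to 201, with a median of 6.33. The 3 ranges overlapped, and the low median of the short group went with detection in 9 of 15 cells, against 75 of 81 long and 24 of 25 medium telomere cells. On the log2 scale the means were 5.25 ± 1.91, 4.92 ± 1.36 and 2.75 ± 2.43. Long exceeded short telomere cells by 2.50, with the long telomere cell higher in 80.6% of all long-short pairs.

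MELK was singled out in earlier work on these data for its relation to telomere length, so its own coefficients are descriptive. Over 121 cells the Pearson correlation of its TPM with T/R was 0.504 (Spearman's rho 0.391), the second highest coefficient of the 6213 genes whose mean TPM was 10 or more. Among the 53 gene-poor cells the coefficient was 0.617 (rho 0.451), and among the 68 gene-rich cells it was 0.120 (rho 0.285, and 0.305 with log2 values). With the border at 9000 detected genes in place of 8000, the Pearson coefficient of the cells above it was 0.391. Among the cells this border leaves out is a short telomere cell with 8210 detected genes and a MELK TPM of 201. Among all genes the Pearson coefficient of MELK was at place 1483 of 6206 in gene-rich cells and at place 2 of 6209 in gene-poor cells.

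The 6 cells of highest T/R, all gene-poor, had MELK TPM of 57.5, 310, 302, 345, 215 and 0.99, from the longest telomeres downwards. The 5 cells of highest MELK TPM, all of the long group and gene-poor, held 21.5% of the TPM of MELK summed over all cells. Without the 10 cells of highest T/R, chosen after the values were seen, the coefficient was 0.207 over all cells and 0.179 over gene-poor cells, where leaving out one end of the T/R range by itself narrows what can be correlated. From the shortest telomeres upwards, the median MELK TPM in successive sixths of the cells was 8.15, 41.8, 40.1, 48.4, 45.7 and 66.1. By these medians the lowest sixth stood apart from 4 similar ones and the highest stood above them. On the log2 scale the highest sixth had a mean of 5.54, against 4.93 to 5.38 in the 4 between. The median number of detected genes was 5804 in the lowest and 6265 in the highest sixth, against 8833.5 to 9571 in those 4. In the highest sixth MELK TPM still ran from 0.55 to 345. Among the 3 gene-rich short telomere cells MELK TPM was 1, 47.6 and 201, so that the short group there went past the range of the long group, 8.35 to 117, at both ends.

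**Figure D1:**
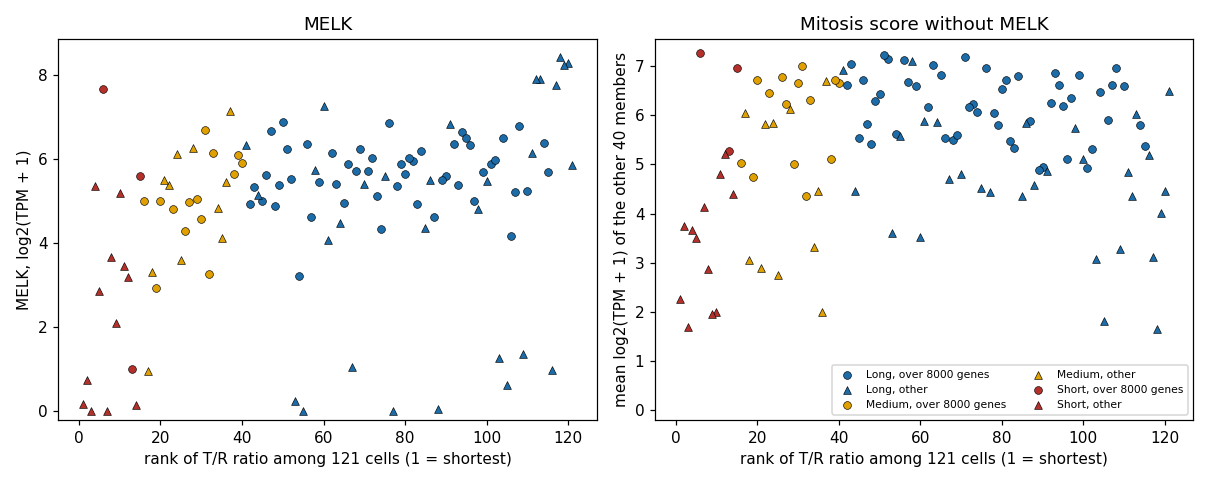
MELK, as log2(TPM + 1), and the mean log2(TPM + 1) of the other 40 members plotted against the rank of the T/R ratio among 121 cells (1 is the shortest), coloured by group, with circles for cells with more than 8000 detected genes and triangles for the others. The 5 highest MELK values lie at the right end in gene-poor long telomere cells. The score of the other members ran from 1.65 to 6.02 in them, against a mean of 4.67 in gene-poor long telomere cells. A gene-rich short telomere cell with a MELK TPM of 201 had the highest score of all cells, 7.28.

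Taken over all cells, the relation of MELK to T/R was not shared by the other 40 members. Over all cells their median coefficient was 0.00835, within a range of -0.172 to 0.217, none reached 0.3, and MELK alone of the 41 did, where 2.30% of the 6213 genes did, which are called all genes from here on. Among gene-rich cells the 40 ran from -0.239 to 0.188 with a median of -0.0820, and none of the 41 reached 0.3, against 1.64% of all genes. Among gene-poor cells their median was 0.0754, within a range of -0.190 to 0.324, and CCNB2 and MELK reached 0.3, against 7.23% of all genes. Spearman's rho for the 40 ran from -0.127 to 0.218 over all cells, below the 0.391 of MELK. Within the long telomere group alone, MELK had a coefficient of 0.534 (rho 0.232), and the others ran from -0.324 for KIF2C to 0.254 for NUSAP1.

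**Figure D2:**
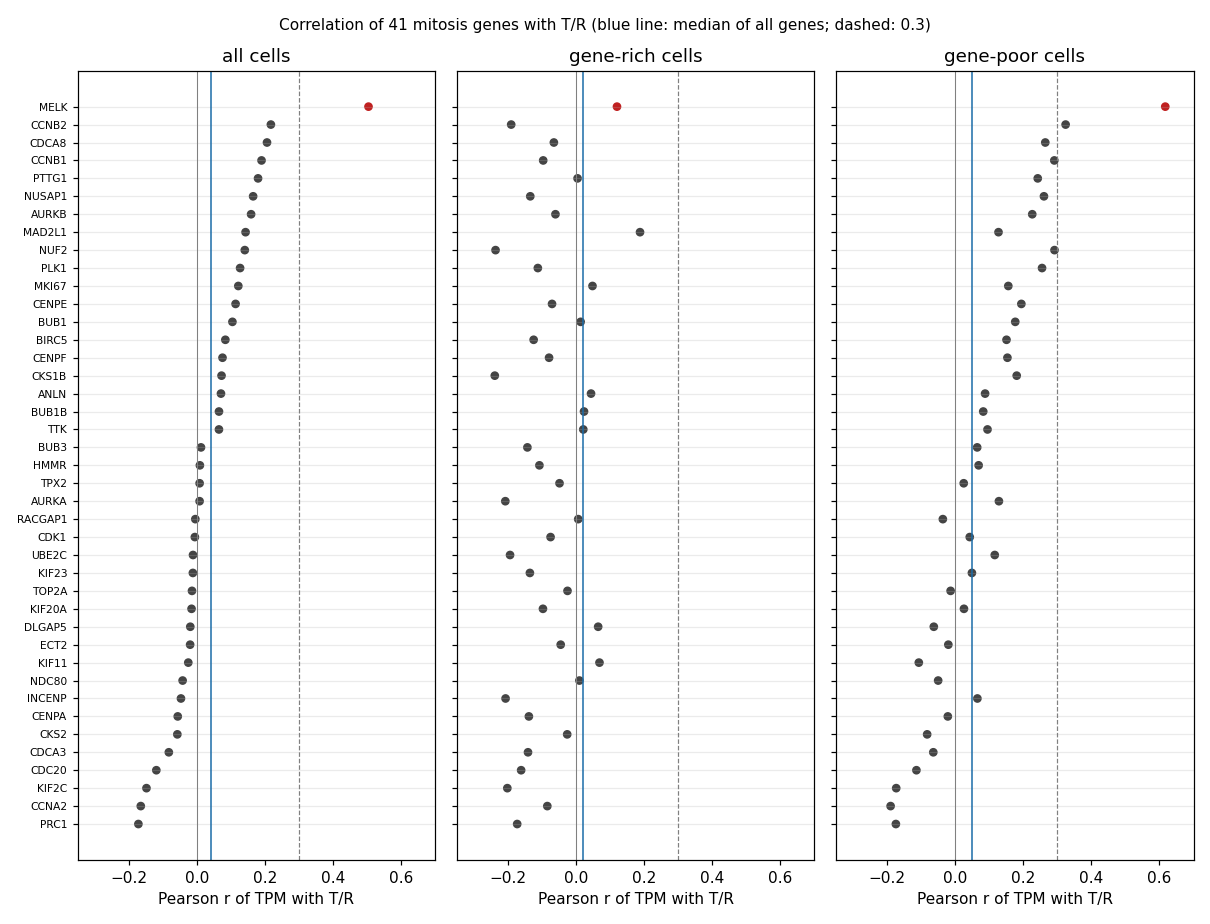
Pearson correlation of TPM with T/R for each of the 41 members in all 121 cells, 68 gene-rich cells and 53 gene-poor cells, with MELK in red, the median of all genes as a blue line and a coefficient of 0.3 as a dashed line. MELK lies apart from the other members in all cells and in gene-poor cells, and in gene-rich cells MAD2L1 lies above it.

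Among the cyclins and their partners, CCNB2, a cyclin that activates CDK1, had a median TPM of 197 (0.31 to 1139.8) in the long, 194 (0.46 to 382) in the medium and 13.6 (0 to 662) in the short group. Its correlation with T/R, 0.217, was the second highest of the members, and it was -0.191 in gene-rich and 0.324 in gene-poor cells. CCNB1, cyclin B1, had medians of 296 (1.77 to 1727), 192 (42.3 to 664) and 121 (0.57 to 969), and a coefficient of 0.190. CCNA2, the cyclin of S phase and G2, had the second lowest coefficient, -0.165, with medians of 86.7 (0 to 265), 87.5 (0 to 272) and 24.4 (0 to 1141). A single short telomere cell thus held the highest CCNA2 value. CDK1, the kinase these cyclins activate, had medians of 176, 202 and 7.32 and a coefficient of -0.00605. The small CDK-binding subunits CKS2 and CKS1B were the most abundant members, with mean TPM of 1498 and 1281, and both were detected in all 121 cells. CKS2 had medians of 1498 (68.4 to 5419), 1598 (71.3 to 2943) and 753 (33.0 to 4508), with a coefficient of -0.0575. CKS1B had medians of 1182, 1268 and 826, and 7 annotated pseudogenes bear its name, so that its reads may be shared with them.

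Of the mitotic kinases other than CDK1 (PLK1, AURKA, AURKB and MELK), AURKB, the Aurora kinase of the chromosomal passenger complex, had the highest mean TPM, 173. Its medians were 157 (0 to 683), 134 (0.52 to 355) and 76.1 (0 to 722), with a coefficient of 0.159. PLK1, with a mean TPM of 59.4 close to that of MELK, had medians of 49.8, 34.0 and 5.13, a coefficient of 0.127 over all cells and -0.112 in gene-rich cells. The medians of PLK1 and MELK thus lay near each other in each group, while their coefficients with T/R did not.

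Among the spindle assembly checkpoint genes, MAD2L1, which encodes the inhibitor that binds CDC20, was the most abundant, with medians of 452 (1.80 to 1114), 324 (0 to 950.0) and 17.2 (0 to 1487). Its coefficient was 0.143 over all cells and 0.188 in gene-rich cells, the highest of the 41 there. BUB1B, the checkpoint pseudokinase BUBR1, had medians of 56.8 (0 to 131), 44.8 (0 to 137) and 0.98 (0 to 109). BUB3, its binding partner, had medians of 283 (0 to 1896), 247 (39.0 to 1159.5) and 151 (45.9 to 2090.3) and was detected in 120 cells. BUB1B was detected in 7 of 15 short telomere cells and BUB3 in all 15.

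CDC20, UBE2C, PTTG1 and CDCA3 were grouped as anaphase and ubiquitin ligase regulators. PTTG1, securin, was the third most abundant member, with a mean TPM of 1118, and had medians of 1124 (12.1 to 3021), 1156 (34.3 to 2532) and 761 (15.0 to 1478) with a coefficient of 0.180. UBE2C, the E2 enzyme of the APC/C, had medians of 641, 877 and 379 and a coefficient of -0.0115, and 5 pseudogenes are named after it. CDC20 had medians of 77.4 (0 to 364), 61.0 (0 to 366) and 74.8 (0 to 1917) and a coefficient of -0.119, and CDCA3 had -0.0825. CDC20 was among the few members whose short telomere median came near that of the long group.

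Of the centromere and kinetochore genes, NUF2, a subunit of the NDC80 complex, had the highest mean TPM, 74.4, with medians of 64.7 (0 to 711), 72.7 (0 to 159) and 2.88 (0 to 382). Its coefficient was 0.141 over all cells, -0.237 in gene-rich and 0.292 in gene-poor cells. In the chromosomal passenger complex, BIRC5, survivin, had medians of 78.0 (0.51 to 236), 76.2 (8.36 to 181) and 75.3 (0 to 255). Its log2 means were 6.21, 6.15 and 4.93, so that the long and short groups differed by 1.29 although their medians were close. CDCA8, borealin, had the third highest coefficient, 0.206, with medians of 28.5 (0 to 842), 29.5 (0 to 219) and 1.48 (0 to 80.8). INCENP, the scaffold of that complex, was the least abundant member, with a mean TPM of 6.86 and detection in 71 cells.

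KIF2C, a kinesin that depolymerizes microtubules, led its role by mean TPM, 42.0, and had medians of 32.9 (0 to 209), 43.6 (0 to 93.3) and 3.45 (0 to 342) with a coefficient of -0.148. NUSAP1, a spindle-binding protein, had medians of 122 (0.62 to 575), 120.0 (7.60 to 669) and 61.8 (0.76 to 375) with a coefficient of 0.165. PRC1, the protein that bundles midzone microtubules for cytokinesis, had the lowest coefficient of all members, -0.172, and medians of 29.7 (0 to 220.1), 29.1 (0 to 137) and 35.9 (0 to 339). On the log2 scale it was the only member with a lower mean in long than in short telomere cells over all cells. By mean TPM 9 members were lower in long telomere cells, CDC20 with 94.1 against 230.2, CCNA2 with 93.9 against 168, TOP2A with 113 against 163, PRC1, BUB3, NDC80, TPX2, CDCA3 and KIF2C. The share of all genes lower by mean TPM was not computed, so whether this count is particular to the members is not known. Single short telomere cells weigh on these means, with maxima of 1917 for CDC20, 1141 for CCNA2 and 1628 for TOP2A. The short group medians of these genes were 74.8, 24.4 and 34.0. An antisense gene, PRC1-AS1, overlaps the exons of PRC1. TOP2A, the topoisomerase that resolves sister chromatids, had medians of 103 (0.10 to 299.8), 96.7 (0.24 to 341) and 34.0 (0.14 to 1628) and a coefficient of -0.0145.

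The other 17 members lay between these. They were the kinase AURKA, the checkpoint kinases BUB1 and TTK, the centromeric histone CENPA, the kinetochore proteins CENPE, CENPF and NDC80, the kinesins KIF11, KIF20A and KIF23, the spindle proteins TPX2, HMMR and DLGAP5, the cytokinesis proteins ECT2, RACGAP1 and ANLN, and MKI67, which coats mitotic chromosomes. Their mean TPM ran from 13.3 for CENPE to 119.7 for DLGAP5, and they were detected in 75 cells (RACGAP1) to 113 cells (DLGAP5). Their coefficients with T/R ran from -0.0563 for CENPA to 0.122 for MKI67 over all cells, from -0.208 for AURKA to 0.0687 for KIF11 in gene-rich cells and from -0.107 for KIF11 to 0.194 for CENPE in gene-poor cells.

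**Figure D3:**
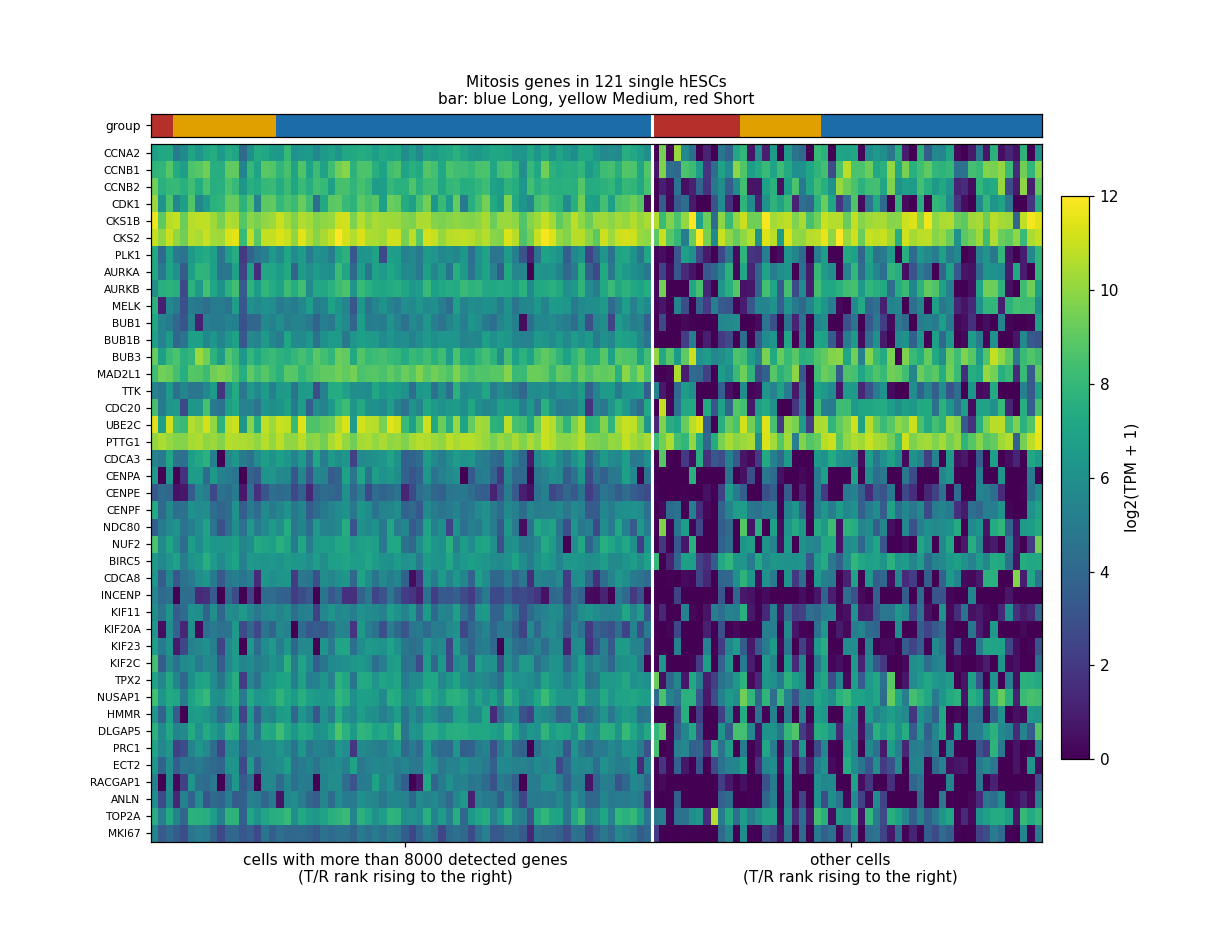
Log2(TPM + 1) of the 41 members, grouped by role from cyclins at the top to chromosome structure at the bottom, in 68 gene-rich cells to the left of the white line and 53 gene-poor cells to the right, with T/R rising to the right within each block and the telomere group in the bar above. CKS1B, CKS2, UBE2C and PTTG1 stand out as the most abundant, and values at or near 0 lie mostly among gene-poor cells.

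Between long and short telomere cells, 33 of the 41 members were higher in the long group by at least 1 on the log2 scale, against 66.5% of all genes, meaning those whose mean TPM was 10 or more. The median difference was 1.61 for the members and 1.40 for all genes. The 5 largest differences were 3.75 for MAD2L1, 3.41 for CCNB2, 3.26 for CDK1, 2.96 for BUB1B and 2.50 for MELK. The 5 smallest were -0.18 for PRC1, 0.29 for BUB3, 0.64 for INCENP, 0.67 for CDC20 and 0.75 for TOP2A. The SD across short telomere cells was 3.89 for MAD2L1, 3.04 for CCNB2 and 3.30 for CDK1, so that the first and the third of these differences were smaller than that spread. When the 40 cells of highest T/R were set against the 40 of lowest, the median difference was 0.43 for the members and 0.46 for all genes. Only MAD2L1 with 1.65, MELK with 1.35, CCNB2, AURKB and BUB1B then reached 1, or 5 of 41, where 12.9% of all genes did. Scaling each cell by its median ratio over genes above 0 in every cell lowered the median difference to 1.16 for the members and 1.02 for all genes and left 21 members past 1, where 50.8% of all genes were. From long to medium telomere cells the median difference was 0.29 for the members and 0.14 for all genes.

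Among gene-rich cells the comparison rests on 3 short telomere cells and on the border of 8000 detected genes. There the median difference over the members was -0.26, none of the 41 was higher in long telomere cells by at least 1 (12.7% of all genes were), and 4 were lower by at least 1 (6.94% of all genes were). With borders of 7000 and 9000 detected genes the median difference turned to 0.10 and 0.20, and 2 and 4 members were higher by at least 1. The share of all genes was not computed at these borders, so whether these counts are particular to the members is not known. The border of 7000 takes in a short telomere cell with 7638 detected genes, and that of 9000 leaves out the short telomere cell with 8210. The 4 lower members at the border of 8000 were INCENP with -1.90, PRC1 with -1.35, NUF2 with -1.14 and KIF23, a kinesin of the central spindle, with -1.03. INCENP TPM was 16.4, 20.2 and 46.3 in the 3 short telomere cells, against a median of 5.92 (0 to 30.8) in 51 long telomere cells. On the log2 scale MELK had the largest difference of the members in these cells, 0.89, with the long telomere cell higher in 51.6% of pairs and a mean of 4.75 ± 3.41 in the 3 short telomere cells, a spread larger than the difference. By mean TPM the direction turned, with 55.2 in long and 83.3 in short telomere cells. Among gene-poor cells the median difference was 1.20, against 1.03 for all genes, and 26 members were higher by at least 1, against 51.0% of all genes. MAD2L1 had a difference of 4.03 there and CCNB2 3.80, whose TPM ran from 0.31 to 1139.8 in long and from 0 to 59.6 in short gene-poor cells.

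**Figure D4:**
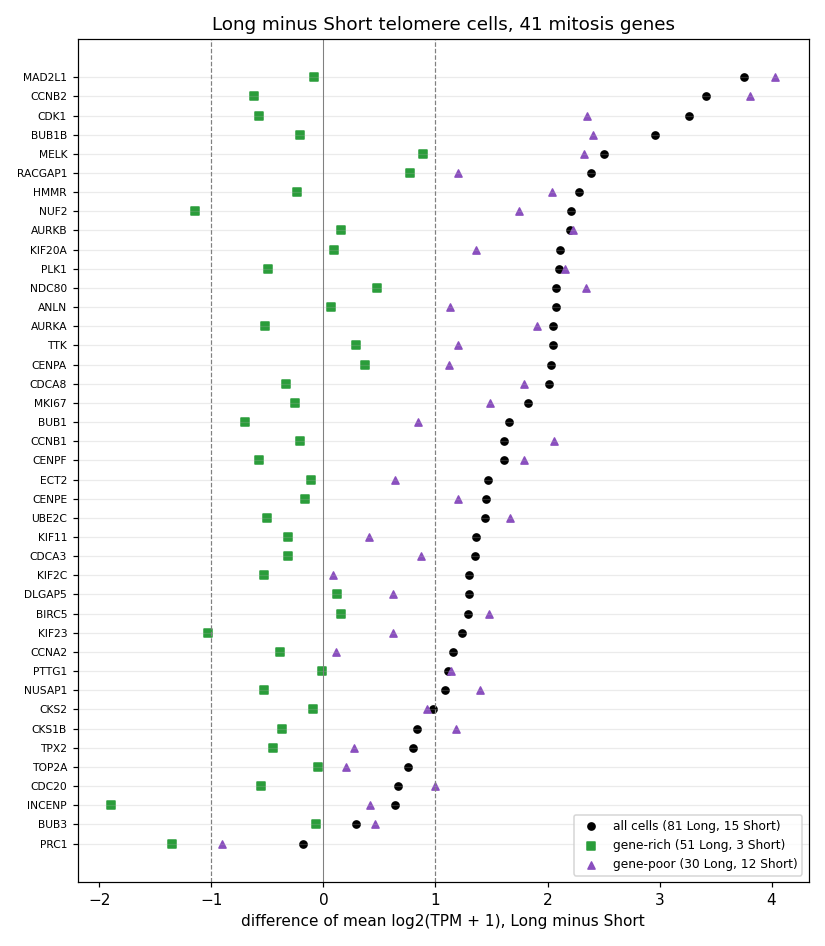
Difference of mean log2(TPM + 1) between long and short telomere cells for each of the 41 members, in all cells, gene-rich cells and gene-poor cells, with dashed lines at 1 and -1. The gene-rich differences lie around 0, from -1.90 for INCENP to 0.89 for MELK, and most differences over all cells and gene-poor cells lie to the right.

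The level of most members followed the number of detected genes, as it did for most of the 6213 genes. Over all cells the median correlation of log2(TPM + 1) with that number was 0.479 for the members, 34 of 41 of which reached 0.3, and 0.422 for all genes, 4449 of which did. A mitosis score, the mean log2(TPM + 1) of the 40 members other than MELK, was 5.63 ± 1.21 in the long, 5.31 ± 1.50 in the medium and 3.98 ± 1.72 in the short group. Its correlation was 0.717 with the number of detected genes and 0.0989 with T/R over 121 cells. Among gene-rich cells the score was 6.20 ± 0.66, 5.99 ± 0.91 and 6.50 ± 1.07 in the 3 groups, with a coefficient of 0.235 with detected genes and -0.0559 with T/R. MELK had a coefficient of 0.418 with the number of detected genes as log2(TPM + 1) and of -0.0458 as TPM. The partial correlation of MELK TPM with T/R was 0.509 with detected genes held fixed, and 0.503 with the mitosis score held fixed, an addition made after the values were seen. With MELK TPM at -0.0458 with detected genes and the score at 0.0989 with T/R, these partial values had little room to move. Among gene-rich cells they were 0.121 and 0.147. The part of library quality in the relation was not tested.

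Among gene-rich cells the members varied together. The median correlation of log2(TPM + 1) over their 820 pairs was 0.396, against 0.0151 over all pairs of genes, and 559 pairs reached 0.3, or 68.2%, where 3.43% of all pairs did. The pairs share libraries and the members were listed as genes of a single process. The highest pair was UBE2C with TOP2A, 0.869, followed by PRC1 with TOP2A, 0.797, and CKS2 with DLGAP5, a spindle protein, 0.761. MAD2L1 took part in the 2 lowest, -0.178 with CDCA3 and -0.153 with KIF2C.

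MELK was loosely tied to this group. Its log2 value had a correlation of 0.368 with the mitosis score of the other members, the fourth lowest of the 41 when each was set against the others, above ANLN, PTTG1 and MAD2L1. UBE2C had the highest such value, 0.869. With single members MELK ran from 0.0106 for NUF2, 0.0152 for PTTG1 and 0.0869 for CCNB1 up to 0.437 for KIF20A, a kinesin of cytokinesis, and 0.368 for TOP2A. With a score of 40 S phase genes MELK had a coefficient of 0.0826, while the S phase and the mitosis score had -0.467 with each other. MELK, MAD2L1 and ANLN were the members with a positive coefficient with the S phase score, and the others reached down to -0.529 for NUF2.

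**Figure D5:**
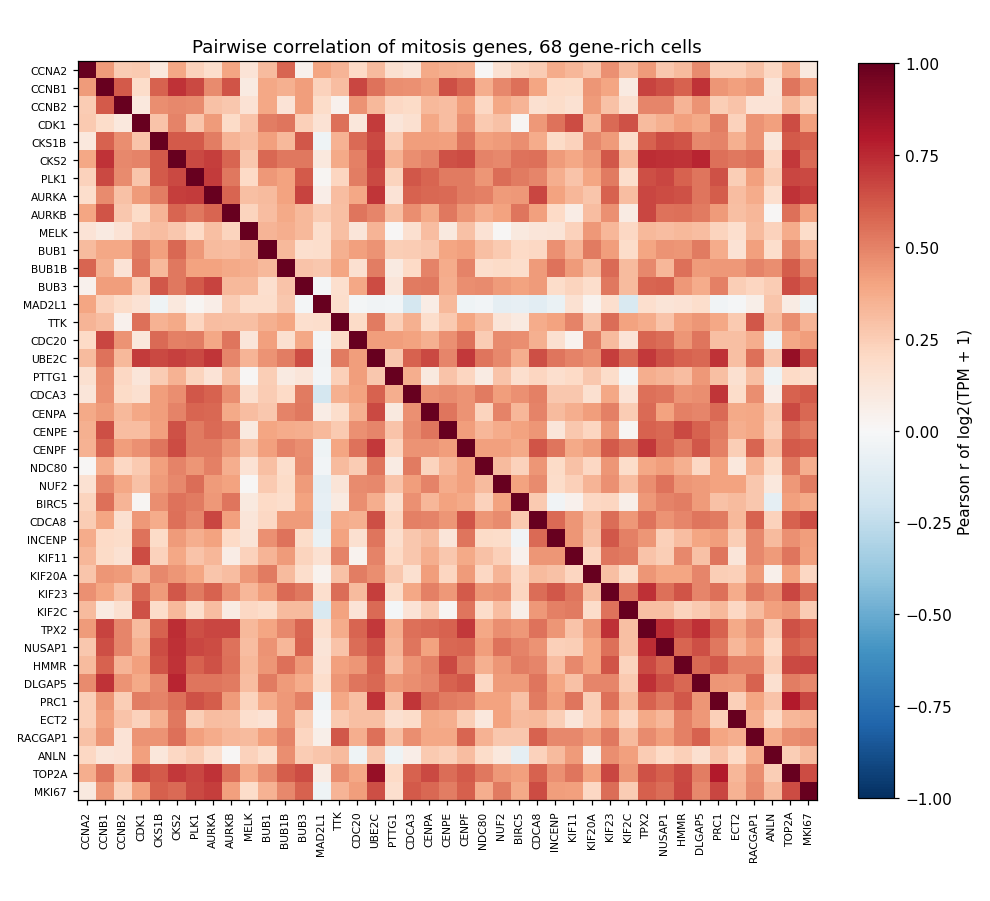
Pairwise Pearson correlation of log2(TPM + 1) among the 41 members over 68 gene-rich cells, in the order of their roles. Most cells of the matrix are red, with a median of 0.396, and MAD2L1, MELK, PTTG1 and ANLN appear as pale bands.

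By likeness to MELK, measured as Pearson correlation of log2(TPM + 1) among genes whose mean TPM was 10 or more, the nearest gene in the 68 gene-rich cells was SMC4, a condensin subunit, with 0.474. OXLD1, MRE11A, FAM64A, KIF20A, GINS1, PXYLP1, ZCCHC17, FLVCR1-AS1 and RMI2 followed, down to 0.408, so that KIF20A was the only member among these 10. Over all 121 cells the nearest were IQGAP1 with 0.581 and NANOG, the pluripotency factor, with 0.566, then RPRD1A, TMEM41B, FADS2, TCF12, SPTSSA, HIF1A, MAPK1IP1L and IPO9. No member was among these 10, and KIF20A, at place 33, was the nearest member with 0.479. The median over all genes was 0.195 in all cells and 0.0251 in gene-rich cells.

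Other mitosis genes were examined from a list of 62, of which 61 were measured. None reached a coefficient of 0.3 with T/R over all cells, and their median was 0.0439. The 3 highest were the kinesin KIF4A with 0.272, the condensin subunit SMC4 with 0.270 and the spindle protein SPAG5 with 0.261, and the 3 lowest were the kinase NEK2 with -0.247, the kinetochore subunit SPC25 with -0.208 and the microtubule-associated protein CKAP2 with -0.168. Among gene-rich cells again none reached 0.3, and among gene-poor cells 5 did, where 7.23% of all genes did. Of these 61, 40 were higher in long than in short telomere cells by at least 1, with a median difference of 1.33, against 66.5% and 1.40 for all genes. Of 40 S phase genes none reached 0.3 over all cells, with RRM1, a subunit of ribonucleotide reductase, highest at 0.275. Among gene-rich cells their median was 0.104, and 1 reached 0.3, with 0.393, where 1.64% of all genes did. Among gene-poor cells their median was 0.0469 and 0 reached 0.3. In gene-rich cells the S phase score had a coefficient of 0.313 with T/R (rho 0.271). The mitosis score had -0.0559 there, and MELK had 0.305 as log2(TPM + 1).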

How the data were processed

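According to the study's methods, the authors mapped single-end reads to hg19 with TopHat and counted them per RefGene gene with HTSeq, whereas the submitters' processing notes name TopHat2 and RSEM. The deposited table holds TPM values from the authors with 2 decimals, which summed to between 979828 and 997050 per cell over the 25610 genes read (up to ZFR in the order of symbols; later genes were not analysed here). Depth cannot be read from TPM. T/R ratios per cell were read from the study's supplement and groups from the labels. The members and lists were chosen with earlier results of these data known. Any member may be named, and values are given for MELK, the 3 most abundant, the 5 highest and 5 lowest by correlation with T/R and by long-short difference, and the most abundant of each role. Beyond the members, the 10 genes most like MELK and the 3 highest and 3 lowest of the other mitosis genes were named. KIF23, UBE2C, PLK1 and the members given by ranges only are outside this rule and were named after their values were seen. The background was the 6213 genes whose mean TPM was 10 or more. No test was run, because the cells are not replicates. Alternatives were pseudocounts of 0.1 and 10, group medians, Spearman's rho, log2 or TPM scale, 2 rescalings, other borders and fewer cells, and partial correlation. Calculations were checked on simulated data. Python 3.11.15, numpy 2.4.6, pandas 2.3.3 and matplotlib 3.10.9 were used. Promoter windows are from RefSeq (GRCh38.p14) and gene positions from GENCODE (GRCh37). The annotation names a pseudogene after 13 members, and 10 members overlap exons of another gene of the table.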

Additional observations from a re-analysis of the deposited data

How the results depend on the processing

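Among the recomputed values, 159 kept within the limits set for a shift (0.1 for correlations, 0.5 for log2 values and 1.5 times for counts) and 41 moved. No value past a limit changed sign, and the cause of each shift was not tested. Smaller values did: at borders of 7000 and 9000 the gene-rich median difference turned from -0.26 to 0.10 and 0.20, the score difference from -0.31 to 0.10 and 0.17 and the score's correlation with T/R from -0.0559 to 0.0153 and 0.0277, and with median ratio scaling the median correlation of the other members with T/R over all cells turned from 0.00835 to -0.0194. With the 40 cells of highest T/R against the 40 of lowest, 5 members passed the log2 limit of 1 over all cells and 7 over gene-poor cells, the median differences were 0.43 and 0.43, and the score differences 0.44 and 0.50. With a pseudocount of 10 the counts were 15 and 16, the medians 0.81 and 0.63 and the score differences 0.89 and 0.79, and with 0.1 the medians were 2.39 and 1.84, the score difference over all cells 2.35 and the count in gene-rich cells 3. Group medians gave 2.48 and 1.84. Median ratio scaling gave 21 members over all cells and a score difference of 0.80 in gene-poor cells. Borders of 7000 and 9000 gave 2 and 4 members past the limit in gene-rich cells. Beside the 5 and the 21 members over all cells, 12.9% and 50.8% of all genes passed the limit. For the other counts of this paragraph past the log2 limit, that share was not computed under the same setting. Those counts therefore say nothing particular to the members. MELK had correlations with T/R of 0.334 over all and 0.401 over gene-poor cells with median ratio scaling, 0.391, 0.285 and 0.451 in all, gene-rich and gene-poor cells by Spearman's rho, and 0.374, 0.305 and 0.419 with log2 values. It had 0.391 in gene-rich cells at a border of 9000, and, chosen after seeing the data, 0.207 over all and 0.179 over gene-poor cells without the 10 cells of highest T/R. With the mitosis score MELK had a rho of 0.265. Other members at 0.3 in gene-poor cells were 3 without cells under 4000 detected genes and by rho, and 0 with median ratio scaling, log2 values or a border of 9000. With genes of mean TPM of at least 1 as the background, 38.9% passed the log2 limit and 1.50% the correlation limit. Apart from the cells left out after seeing the data, the MELK coefficient ran from 0.334 to 0.509 over all cells, from 0.0900 to 0.391 in gene-rich and from 0.401 to 0.638 in gene-poor cells. Each time it was above the median of the other members. MELK had been singled out in these data for this relation, so that order is descriptive and gives the relation no support. No paired analysis was possible because equal numbers in the labels of different groups do not link cells, and no result comes from a test. Depth is unknown from TPM, each group is a single sample, and 3 short telomere cells carry the gene-rich comparison.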
